A study of Mus musculus with 8 samples.

Results

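The genes of the desmosome were examined in the H3K27ac peak lists of 4 mouse breast tumors, 2 control and 2 test tumors. The 10 genes were *Dsc1*, *Dsc2*, *Dsc3*, *Dsg2*, *Jup*, *Pkp1*, *Pkp2*, *Pkp3*, *Dsp* and *Perp*, and their regions were selected on the measured peak positions themselves, as every peak interval in the gene body or in the 50 kb on either side of it. They are 10 of 21938 protein-coding genes. Where intervals of different tumors overlapped or met, they were merged into 1 union region, and the loci of the 10 genes held 98 of the 91238 union regions in the genome. All mice carried the polyoma middle T oncogene (PyMT), which is driven in the mammary epithelium, and lacked Rag1, so that they had no T or B cells of their own, and all were given wild-type CD4+ T cells when 4 weeks old. Control tumors came from PyMT;Rag1KO mice. Test tumors came from K14-TSLPtg;PyMT;Rag1KO mice, in which the keratin 14 promoter, active in basal cells of the skin and other epithelia, drives thymic stromal lymphopoietin (TSLP). The paper calls these tumors advanced, and took mice at a set tumor size or when they were unwell or losing weight. Tumor size at collection is not given for each sample. The labels give no age at collection, and in their titles the control samples are named tumor and the test samples cyst.

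Desmosomes are the junctions that fasten the keratin filaments of neighboring epithelial cells to each other. Desmocollins and desmogleins are cadherins that bridge the gap between the cells, the armadillo proteins plakoglobin (*Jup*) and the plakophilins bind their tails, and desmoplakin (*Dsp*) links this plaque to keratin. In the mammary gland desmosomes join luminal cells to each other and to the basal cell layer. H3K27ac is the acetylation of histone H3 at lysine 27, found at active promoters and enhancers. The lists give where this mark passed the peak caller's threshold and not how strong it was, so a wider peak interval means only that more bases passed.

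Control 1 had 69861 intervals and control 2 had 67850, against 65763 in test 1 and 59762 in test 2. The mean interval was 1047 and 999.9 bp wide in control 1 and control 2 and 1109 and 1077 bp wide in test 1 and test 2. Of 8 luminal marker genes, 8, 7, 8 and 7 had a peak at the promoter in control 1, control 2, test 1 and test 2, a promoter being the 1 kb on either side of the 5′ end of the gene. Of 8 basal or myoepithelial markers, 5, 1, 3 and 0 had one, and *Trp63*, *Myh11* and *Mylk* had none in any tumor. Promoter peaks were found in the same order of tumors at 3, 3, 2 and 0 of 8 fibroblast markers, at 4, 4, 2 and 0 of 7 endothelial markers, at 6, 5, 5 and 4 of 8 myeloid markers, at 1, 1, 0 and 0 of 7 T cell markers and at 0 of 6 adipocyte markers in every tumor. On locus coverage both test tumors were higher at 4 of the 7 T cell genes (*Cd3e*, *Cd3d*, *Cd4* and *Cd28*) and both control tumors at 1 (*Cd2*). The median difference was 0.794 percentage points. *Cd3e*, *Cd3d* and *Cd4* had no promoter peak in any tumor, and *Cd28* had one in control 2 alone. Both control tumors were higher at 3 fibroblast, 3 myeloid and 4 endothelial markers, and both test tumors at 1, 0 and 0. Among genes with a peak in the locus, both test tumors were higher at 17.3% and both control tumors at 13.0%. In whole tumors, fewer cells of a type and less acetylation per cell cannot be told apart. With 2 tumors per group there are only 3 ways to split the 4 tumors into pairs, so no permutation test could pass a usual threshold and no p-value is given.

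Of the 10 genes, 8 had a promoter peak in all 4 tumors (*Dsc2*, *Dsg2*, *Jup*, *Pkp1*, *Pkp2*, *Pkp3*, *Dsp* and *Perp*), against 49.6% of all protein-coding genes. With peaks of at least 1 kb alone, 5 genes had one in all 4 tumors. *Dsc1* had none in any tumor, as had 42.8% of all genes, and *Dsc3* had a narrow one in control 1 alone. For the 8 genes the promoter domain, the union regions that reach the promoter, was measured as its covered bases in each tumor. *Dsg2*, *Jup*, *Pkp2* and *Dsp* had more covered bases in both test tumors than in either control tumor, 4 of 8, and in 0 of 8 were both control tumors above both test tumors. Over the 10874 genes with a promoter peak in all 4 tumors these shares were 24.6% and 9.74%, and the median ratio of test to control means was 1.036. Without control 1 all 8 genes had more covered bases in both test tumors than in control 2, and without control 2 there were 4 such genes and 1 in the other direction. The mean interval of the whole list was also wider in both test tumors, as given above, and its part in this count was not tested.

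**Figure D1:**
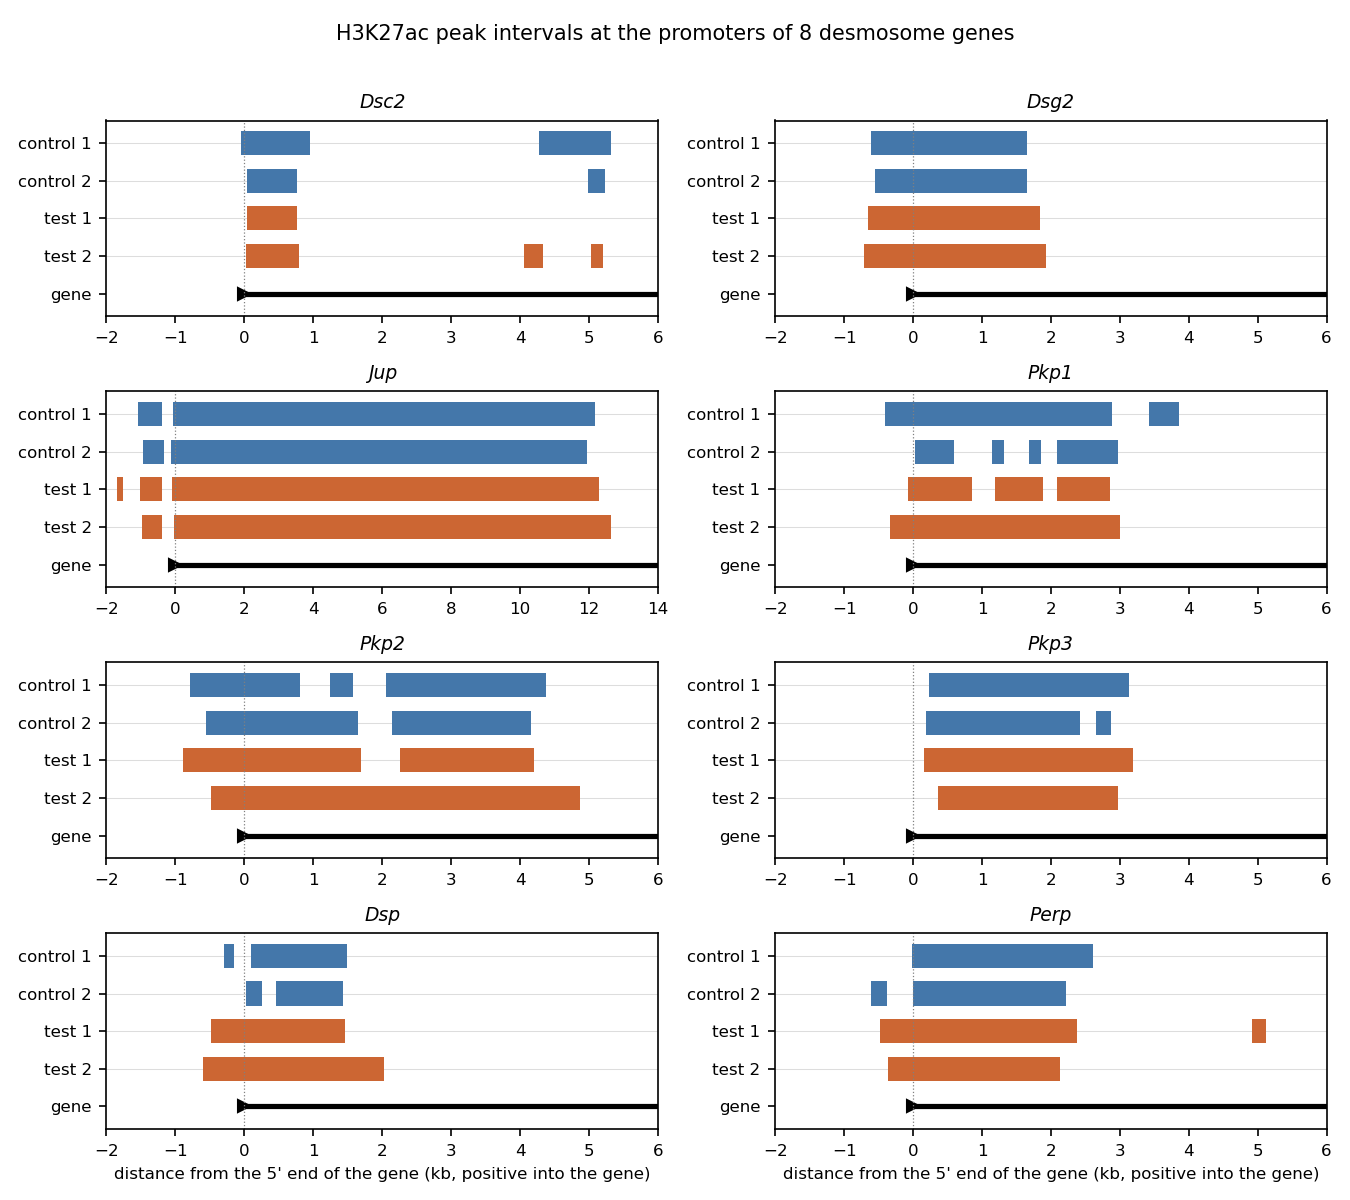
Peak intervals (bars) in each tumor around the promoters of the 8 genes with a promoter peak in all 4 tumors, by distance from the 5′ end in kb, with control tumors in blue, test tumors in orange and the start of the gene as a black line. At *Dsp* and *Perp* the bars of both test tumors run across the 5′ end into the upstream side, those of *Jup* extend some 12 kb into the gene in all 4 tumors, and those of *Pkp1* are broken in control 2 and test 1.

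*Dsp* (chr13:38151294-38198577, plus strand, mm10) showed the largest relative difference among these domains. Its domain covered 1554 bp in control 1, 1206 bp in control 2, 1943 bp in test 1 and 2623 bp in test 2, a test to control ratio of 1.654. Both test tumors were above both control tumors. In each test tumor the domain was a single interval across the 5′ end, from -480 to 1462 bp in test 1 and from -595 to 2027 bp in test 2, counted from the 5′ end into the gene. In each control tumor it was broken into 2 intervals, neither of which covered the 5′ end, and the wider one began at 91 bp in control 1 and at 462 bp in control 2.

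Of the 250 bases just before the 5′ end of *Dsp*, 103 were inside a peak in control 1 and 0 in control 2, whereas all 250 were in both test tumors. *Perp* was alike, with 16 and 0 bases in the control tumors and 250 in each test tumor. These are 2 of the 10 genes with this stretch inside peaks throughout in both test tumors and in neither control tumor, compared with 0.784% of all genes. The measure was added after the *Dsp* intervals had been seen. Joining intervals within 1 kb of each other left 0 of the 10 genes in this class, since it fills the gap in control 1 at *Dsp* and in control 2 at *Perp*, while the other control tumor at each gene has no interval close enough upstream to be joined.

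The stretch before the start of *Dsp* is printed because its coverage separated the groups, with that of *Jup* beside it as a gene whose domain hardly differed. Both are the 250 bases before the RefSeq start in GRCm38.p6, the assembly of mm10, read 5′ to 3′ on the strand of the gene at chr13:38151044-38151293 (plus) and chr11:100397791-100398040 (minus). Capitals mark GC boxes (GGGCGG on either strand), the only letters found of 6 motifs searched. The RefSeq promoter table held 2 of the 10 genes.
Dsp promoter: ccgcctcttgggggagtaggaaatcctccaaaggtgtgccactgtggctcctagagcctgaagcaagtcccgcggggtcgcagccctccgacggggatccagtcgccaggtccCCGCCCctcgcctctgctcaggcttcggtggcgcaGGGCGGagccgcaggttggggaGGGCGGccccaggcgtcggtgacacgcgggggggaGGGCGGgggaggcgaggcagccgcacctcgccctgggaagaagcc
Jup promoter: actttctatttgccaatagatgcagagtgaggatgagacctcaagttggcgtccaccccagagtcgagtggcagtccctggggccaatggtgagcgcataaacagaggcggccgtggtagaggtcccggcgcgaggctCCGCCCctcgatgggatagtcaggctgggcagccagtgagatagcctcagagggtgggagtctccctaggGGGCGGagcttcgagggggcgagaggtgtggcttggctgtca
The *Dsp* stretch had 4 GC boxes and a GC content of 72.4%, and the *Jup* stretch had 2 and 62.0%. The median GC content of the 32851 promoters in the table was 52.4%, and 32.7% of them held at least 1 GC box. Neither stretch held an AP-1 motif (TGANTCA, in 6.75% of the promoters), a grainyhead-like motif (AACCGGTT, 0.116%), the p63 motif searched (CATG, 5 bases of any kind, then CATG, 0.432%), an E-box (CAGGTG, 17.2%) or, on the strand of the gene, a TATA box (TATAAA, 7.59%). The other motifs were searched on both strands, and no 2 matches overlapped. In the *Jup* stretch 31, 88, 58 and 15 of the 250 bases lay inside peaks in control 1, control 2, test 1 and test 2, so that it fell mostly in the gap between the intervals on either side of it.

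Over the whole *Dsp* locus, control 1 had 2.86% and control 2 had 2.58% of the bases inside peaks, against 3.19% for test 1 and 4.28% for test 2. The difference of the means was 1.01 percentage points, with an SD of 0.650 over the 4 pairs of 1 test and 1 control tumor, and the groups did not overlap. The pairs share tumors, so this SD over pairings describes spread and is not an error of the mean difference. Without test 2 the difference was 0.465, without test 1 it was 1.56, and in the gene body alone it was 0.0592. The excess of the test tumors was on the upstream side, where peaks covered 1215, 832, 1517 and 3258 bp in control 1, control 2, test 1 and test 2. Within the gene body the tumors were close, at 2408, 2351, 2503 and 2312 bp. The control tumors had more but narrower intervals, 10 each, against 7 in test 1 and 6 in test 2.

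Centred at -5954 bp from the 5′ end of *Dsp* lay an intergenic region that was present in all 4 tumors. It covered 623 bp in control 1, 499 bp in control 2, 751 bp in test 1 and 1838 bp in test 2. The test tumors were again above the control tumors, by most in test 2, which had another 664 bp region next to it, centred at -7540 bp, that no other tumor had. Smaller regions at -22606 bp, upstream of the gene, and at 19540 bp, in an intron, were present in all 4 tumors, with 161 to 286 bp and 281 to 457 bp.

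**Figure D2:**
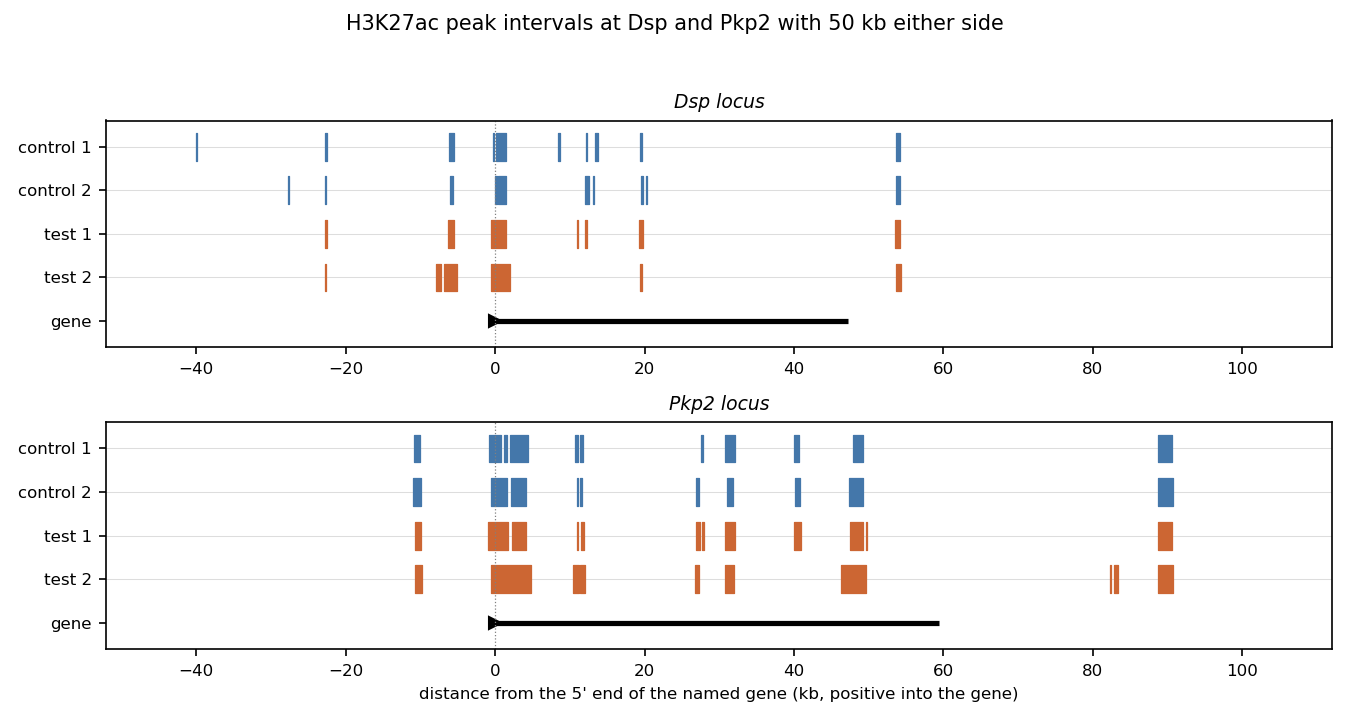
Peak intervals (bars) in each tumor over the *Dsp* and *Pkp2* loci, by distance from the 5′ end of the gene in kb, with control tumors in blue, test tumors in orange and the gene as a black line; the narrowest bars are drawn with an outline and look slightly wider than they are. Test 2 has the widest intervals upstream of *Dsp* and at the promoter and near 48 kb in *Pkp2*.

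The 300 bases at the centre of 2 regions outside promoters are printed on the plus strand of GRCm38.p6, because their covered bases were higher in both test tumors. They are the region upstream of *Dsp* (chr13:38145191-38145490) and a region near the 3′ end of *Pkp2* whose centre is intronic (chr16:16261187-16261486). Capitals mark the matches to the same 6 motifs.
Dsp upstream region: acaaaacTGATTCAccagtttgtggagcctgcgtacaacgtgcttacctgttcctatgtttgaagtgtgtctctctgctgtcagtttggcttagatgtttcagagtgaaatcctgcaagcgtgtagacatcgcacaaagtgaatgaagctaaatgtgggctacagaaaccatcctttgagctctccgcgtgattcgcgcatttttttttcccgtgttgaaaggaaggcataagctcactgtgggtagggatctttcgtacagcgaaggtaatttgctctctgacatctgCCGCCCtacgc
Pkp2 intronic region: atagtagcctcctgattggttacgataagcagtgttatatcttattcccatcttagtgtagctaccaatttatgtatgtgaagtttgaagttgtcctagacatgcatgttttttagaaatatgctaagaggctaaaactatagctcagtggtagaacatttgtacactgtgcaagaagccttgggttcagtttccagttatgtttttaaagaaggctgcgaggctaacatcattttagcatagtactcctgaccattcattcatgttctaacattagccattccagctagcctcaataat
The *Dsp* stretch held 1 AP-1 motif and 1 GC box, and the *Pkp2* stretch held no match. Among the central 300 bases of 91236 union regions, 10.1% held an AP-1 motif, 10.7% a GC box, 21.2% an E-box, 8.46% a TATA box on the plus strand, 0.654% the p63 motif and 0.151% the grainyhead-like motif. The GC content was 47.0% in the *Dsp* stretch and 37.3% in the *Pkp2* stretch, against a median of 47.7%. Peaks covered 300, 264, 300 and 300 of the *Dsp* bases in control 1, control 2, test 1 and test 2, and all 300 of the *Pkp2* bases in every tumor.

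*Perp*, a tetraspan protein of the desmosome and a known target of p63 (chr10:18845020-18857073, plus strand), had nearly the same coverage in all tumors. Peaks covered 3.31% and 2.87% of its locus in control 1 and control 2 and 3.16% and 3.17% in test 1 and test 2, a difference of 0.0723 percentage points (SD over pairings 0.257). Both test values lay between the control values. The promoter domain covered 2629, 2435, 2856 and 2493 bp, which also overlapped between the groups, although its upstream edge differed as given above.

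*Pkp2*, the plakophilin found in simple epithelia and in the heart (chr16:16213318-16272712, plus strand), was the other gene besides *Dsp* with more of its locus covered in both test tumors. Control 1 had 7.01% of the bases covered and control 2 had 7.29%, against 8.12% for test 1 and 9.66% for test 2, a difference of 1.74 percentage points (SD over pairings 0.906) that was 0.968 without test 2. Unlike at *Dsp*, the excess lay in the gene body, with 7766, 7947, 9428 and 11357 bp covered, while the upstream flank had 1516, 1638, 1621 and 1385 bp. The promoter domain covered 4235, 4217, 4530 and 5349 bp, a ratio of 1.169, and was 1 interval in test 2 but 2 or 3 in the other tumors. The region centred at 48019 bp covered 1376, 1822, 2038 and 3420 bp, and here too test 2 was the highest and both test tumors were above both control tumors. Of the 12 union regions of this locus 7 were present in all 4 tumors, the largest share among the 10 genes at 58.3%.

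*Jup*, plakoglobin, which serves adherens junctions as well (chr11:100368958-100397763, minus strand), had the widest acetylated stretch of its own of the 10 genes. A single interval that began near the 5′ end and ran into the gene measured 12223 bp in control 1, 12049 bp in control 2, 12367 bp in test 1 and 12672 bp in test 2. It ranked 105, 88, 95 and 58 by width among all intervals of its tumor. The whole promoter domain covered 12915, 12662, 13000 and 13265 bp and was larger than that of 99.4% of the genes with a promoter peak in all 4 tumors. Although both test values were above both control values, the ratio was only 1.027, less than the median ratio over those genes. The locus as a whole did not separate the groups, at 15.1%, 16.4%, 15.7% and 14.2%. One control-only region of 531 bp lay in the upstream flank, at the shared promoter of *Fkbp10* and *P3h4*, genes of collagen processing, with 340 bp in control 1 and 482 bp in control 2 (chr11:100415426-100415956). A wider region at the same promoter was present in all 4 tumors, with 1233, 1192, 1219 and 896 bp.

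*Pkp1*, the plakophilin of stratified epithelia (chr1:135871395-135919207, minus strand), lay in the most heavily acetylated locus, with more coverage than 94.1% of all genes. Peaks covered 26.3% of it in control 1 and 14.9% in control 2, compared with 15.4% for test 1 and 20.2% for test 2. The control tumors were the highest and the lowest. The difference of the means was -2.80 percentage points, and the SD over pairings was 7.16. Much of this came from the downstream flank, where a region over *Tnnt2*, the gene for cardiac troponin T, covered 16294, 8059, 7799 and 10699 bp, next to a region at the promoter of *Lad1*, the basement membrane gene ladinin. Inside *Pkp1* an intronic region centred at 25740 bp differed little, with 6163, 5815, 5797 and 5863 bp. The promoter domain covered 3297, 1783, 2405 and 3338 bp and was a single interval in control 1 and test 2, but 4 intervals in control 2 and 3 in test 1.

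*Pkp3*, a plakophilin of both simple and stratified epithelia (chr7:141078218-141090510, plus strand), had 11535, 12387, 15948 and 11757 bp of its locus covered in control 1, control 2, test 1 and test 2. Test 1 stood above the other 3 tumors, so that the groups overlapped (difference 1.68 percentage points, SD over pairings 2.20). The promoter domain covered 2904, 2451, 3035 and 2616 bp and began after the 5′ end in every tumor, at 161 to 361 bp. A pair of intergenic regions upstream was present in all 4 tumors, with 1920 to 2327 bp at -36397 bp and 2502 to 3075 bp at -30316 bp.

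The cadherins lie together on chromosome 18. *Dsg2*, the desmoglein of simple epithelia (chr18:20558074-20604521, plus strand), had a promoter domain of 2259 and 2209 bp in control 1 and control 2 and of 2494 and 2651 bp in test 1 and test 2. The groups did not overlap, and the ratio was 1.152. A pair of intronic regions was present in all 4 tumors, with 501 to 819 bp at 8459 bp and 1368 to 2063 bp at 12353 bp. Over its locus, coverage was 3.83%, 3.10%, 3.40% and 6.25% in control 1, control 2, test 1 and test 2. Test 1 lay between the control tumors and only test 2 stood above them. Of the 11 union regions of the *Dsg2* locus, 5 were found in test 2 alone, against 8.84% of all union regions. One of them, 1157 bp wide, lay at the promoter of *Dsg3*, a desmoglein of the basal layers of stratified epithelia, and another of 1020 bp lay just upstream of *Dsg2*, centred at -4944 bp.

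*Dsc2*, the desmocollin of simple epithelia (chr18:20030633-20059554, minus strand), had a narrow promoter domain of 1003, 722, 729 and 774 bp, smaller than that of most genes, since only 11.6% had a smaller one. Its locus was covered to 2.21%, 0.759%, 0.566% and 1.48%, with both groups spread over much of the same range. *Dsc1*, a desmocollin of the upper epidermis (chr18:20084184-20114871, minus strand), had no peak in its gene body or in the 50 kb upstream in any tumor. All of its locus coverage, 1.93%, 0.748%, 0.558% and 1.46%, came from the downstream flank, which it shares with *Dsc2*.

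*Dsc3*, the desmocollin of basal cells of stratified epithelia (chr18:19960930-20002351, minus strand), was the only one of the 10 genes with more of its locus covered in both control tumors. Peaks covered 3537 bp of it in control 1, 1303 bp in control 2, 0 bp in test 1 and 690 bp in test 2, a difference in coverage of -1.47 percentage points (SD over pairings 0.955). The difference was -0.677 without control 1, and the groups no longer separated with peaks of at least 1 kb or within 10 kb either side of the 5′ end. The interval in test 2 lay within the neighboring *Dsc2*. Within *Dsc3* itself, peaks were found in the control tumors only, at a region that spans the 3′ UTR and the end of the gene (chr18:19960449-19963255). It covered 2717 bp in control 1 and 1303 bp in control 2, the latter in 3 intervals. At the promoter there was only an interval of 163 bp in control 1, at the far edge of the upstream side. The promoters of the basal and myoepithelial markers were also acetylated unevenly, at 5, 1, 3 and 0 of 8 in control 1, control 2, test 1 and test 2. The mean locus coverage of these markers was 7.83%, 6.84%, 7.51% and 4.87%. Both control tumors were higher in locus coverage at 3 of these 8 markers and both test tumors at 0, and the groups overlapped at 5. The *Trp63* locus, with the largest difference of the 8, was covered to 11.5%, 10.9%, 9.69% and 3.79%. The *Krt5* locus had the higher mean in the test tumors, at 6.41%, 2.39%, 8.32% and 4.485%, with overlap. The part of such cells in the *Dsc3* difference was not tested.

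Taking the 10 loci together, both test tumors had more coverage at 2 genes, *Dsp* and *Pkp2*, both control tumors at 1, *Dsc3*, and the groups overlapped at 7. Among the 18693 genes with a peak in the locus the shares were 17.3% and 13.0%, so neither count stood far from that of genes at large. The median difference over the 10 genes was -0.127 percentage points (SD over pairings 0.495), and that over the 18693 genes was 0.0192. The median for desmosome genes was 0.746 with the gene body plus 10 kb, 0.740 within 10 kb of the 5′ end and 0.0592 in the gene body alone. *Dsc1* had no peak in these narrower windows and is left out of their medians. Window and gene set thus changed together, so the change of sign cannot be put down to the window alone. With peaks of at least 1 kb the median over the 10 genes was 0.0345. Without control 1, 5 genes had more coverage in both test tumors and 2 in control 2, and the median was 0.723. Without control 2, test 1 or test 2 the number of genes with more coverage in the control tumors was 5, 2 or 3.

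**Figure D3:**
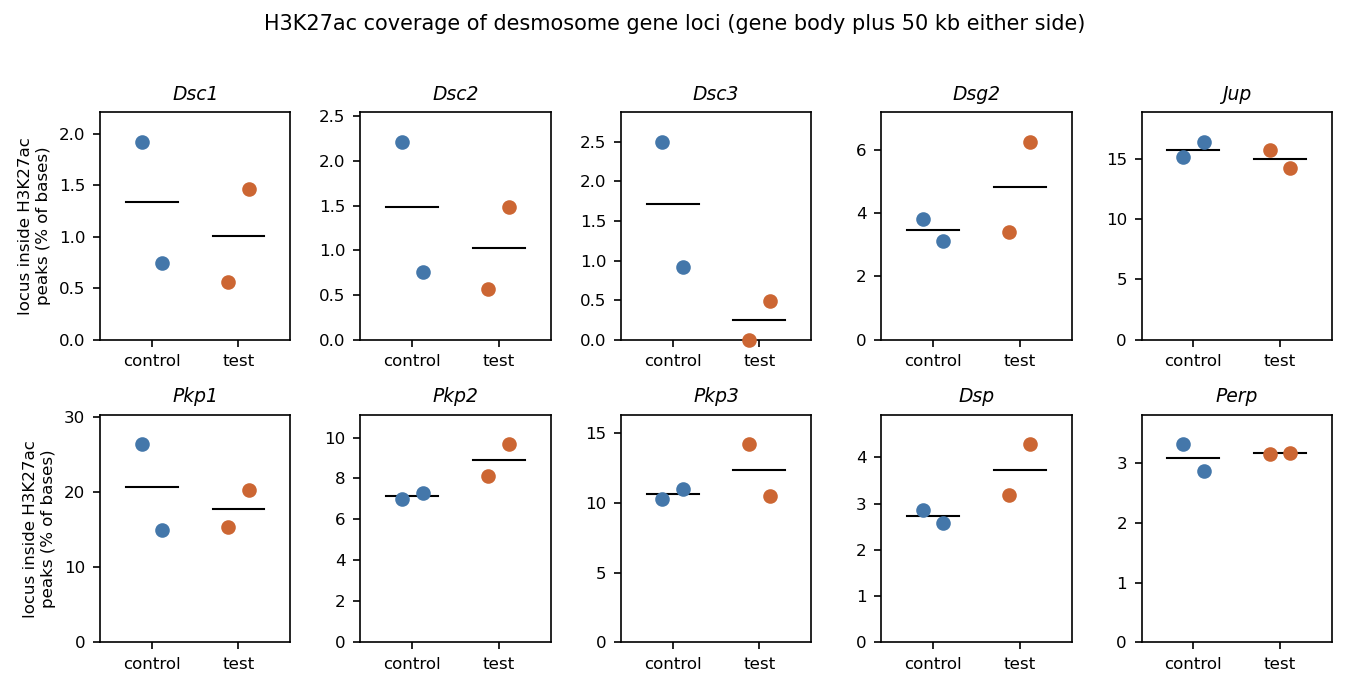
Percent of bases inside H3K27ac peaks in each of the 10 loci, gene body plus 50 kb on either side, with 1 point per tumor (control blue, test orange) and a black line at the mean of each group; the vertical axes start at 0 and differ between genes. The groups separate at *Dsc3*, *Pkp2* and *Dsp*, and control 1 is far above control 2 at *Dsc1*, *Dsc2*, *Dsc3* and *Pkp1*.

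**Figure D4:**
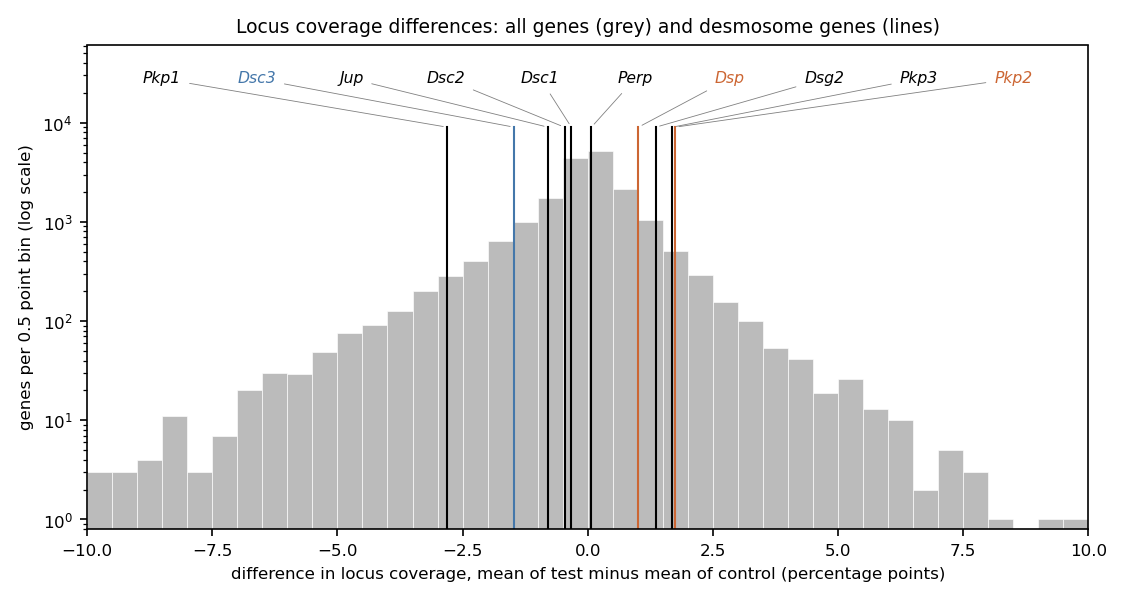
Number of genes by their difference in locus coverage (grey bars, 18693 genes, bins on a log axis), with a line for each desmosome gene, orange where both test tumors were higher, blue where both control tumors were higher and black where the groups overlapped. The 10 genes lie between -2.80 (*Pkp1*) and 1.74 (*Pkp2*) percentage points, within the bulk of all genes, and 16 genes fall beyond the axis.

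Region by region, most of the acetylated regions in these loci were either common to all tumors or found in a single one. Of the 98 union regions 38 were present in all 4 tumors (38.8%), 13 in 3, 10 in 2 and 37 in 1. Over the genome 38.1% were present in all 4 tumors and 36.2% in 1. Regions in all 4 tumors had a median width of 1914 bp and those in 1 tumor of 225 bp. The share present in all 4 tumors was 23.5% of the 17 regions at the cadherin genes and 42.0% of the 81 at the other genes. Of the 98 regions 3 were control-only, found in each control tumor but absent from the test tumors, at *Dsc3*, *Perp* and *Jup*, and 0 of 98 were test-only. The genome held 3.41% control-only and 1.47% test-only regions. With the 10 kb flank, with peaks of at least 1 kb or with peaks joined there was 1 control-only region, and with equal numbers of peaks or 50% of a region covered there was 1 test-only region. The counts also depended on single tumors, since without control 1, control 2, test 1 or test 2 there were 11, 17, 8 and 6 regions in the control tumors only and 3, 2, 10 and 9 in the test tumors only. Fibroblast and endothelial promoter peaks were also fewer in the test tumors, as given above, and their part in the control-only regions was not tested. At the limits of the 50 kb windows 2 regions crossed an edge and 8 further regions lay within 10 kb outside, the nearest 826 bp away, at *Pkp3*.

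The remaining desmosomal genes fell into 2 kinds. The desmogleins *Dsg1a*, *Dsg1b*, *Dsg1c* and *Dsg4*, known from stratified epithelia and hair, had no promoter peak in any tumor, and *Dsg1a* had no peak anywhere in its locus. *Dsg3* had a promoter peak in test 2 alone. By contrast, *Pkp4* and the plakins periplakin (*Ppl*) and envoplakin (*Evpl*), which like desmoplakin link the cell periphery to keratin, had promoter peaks in all 4 tumors. The *Ppl* domain covered 1027, 754, 1373 and 1363 bp in control 1, control 2, test 1 and test 2, a ratio of 1.536. The *Evpl* domain covered 933, 647, 1107 and 1108 bp, a ratio of 1.402. At both genes the test tumors were above the control tumors, while the *Pkp4* domain, at 1296, 1147, 2315 and 1273 bp, overlapped between the groups. Of the 8 markers of cornified keratinocytes, the same 1 in each tumor, *Sbsn*, had a promoter peak.

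Genes of other junctions were measured in the same way. Of 10 adherens junction genes 8 had promoter peaks in all 4 tumors, against 49.6% of all genes. Both test tumors were higher in locus coverage at 1 (*Cdh3*, P-cadherin) and both control tumors at 0. Among the genes with a peak in the locus these shares were 17.3% and 13.0%. The median difference was 0.201 percentage points. E-cadherin (*Cdh1*) did not separate the groups, with a promoter domain of 22182, 21344, 21444 and 20910 bp in control 1, control 2, test 1 and test 2. Of 12 tight junction genes 11 had promoter peaks in all 4 tumors. Both test tumors were higher in locus coverage at 2 (*Ocln* and *Marveld2*) and both control tumors at 1 (*Tjp3*), beside the same shares. The median difference was 0.466. The promoter domains of *Ocln* and *Marveld2* were nearly alike, at 2117, 2369, 2502 and 2939 bp and at 2131, 2388, 2493 and 2951 bp. These 2 genes may therefore not be separate in the counts given here. Promoter domains were larger in both test tumors at 3 of 8 adherens and 4 of 11 tight junction genes and in both control tumors at 0 and 1. Among all genes with a promoter peak in all 4 tumors the shares were 24.6% and 9.74%. Among 6 keratins that desmosomes anchor, *Krt8*, *Krt18*, *Krt19* and *Krt7* had promoter peaks in all 4 tumors, and *Krt5* and *Krt14*, the keratins of basal cells, in control 1 and test 1 only. The *Krt8* locus was covered to 37.3%, 32.1%, 37.0% and 37.9%, and *Krt7* was the 1 keratin with more coverage in both control tumors.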

How the data were processed

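H3K27ac ChIP-seq of 2 control and 2 test tumors was used; the matched input libraries were not used here. The authors aligned reads to mm10 with BWA, and MACS2 peaks were called tumor by tumor against the matched input. The deposited lists hold interval start and end positions in bp and the names of the caller peaks joined (values of another kind, with no count, score or signal), with neighboring intervals at least 201 bp apart. Per the file names the lists were cleaned and merged, and what the cleaning removed is not given in the sources used here. Read depth is unknown, so interval number and width mix depth with acetylation. Genes came from GENCODE M21. Coverage, union regions (presence by at least 1 bp of overlap), promoters (1 kb either side of the 5′ end) and promoter domains were computed in Python 3.11.15 with NumPy 2.4.6 and tested on simulated intervals. Both tumors of a group above both of the other is called non-overlap; no test was run. Groups came from the genotype labels, and replicate numbers only name tumors. The genes, lists and measures were chosen with earlier results of these data known. Genes were named by rule: the 10 members, the other desmosomal genes, neighbors with a promoter at a region described, and up to 3 genes of each further list with the largest coverage difference among those whose groups did not overlap. *Tnnt2*, *Cdh1*, *Grhl2*, *Klf5*, *Twist1*, *Zeb1*, *Sbsn*, *Myh11*, *Mylk*, *Cd28*, *Cd4* and the keratins other than *Krt7* were named after their values were seen. Alternatives covered window size, peak width, number and joining, and leaving out each tumor. Per the study, each tumor came from its own mouse.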

Additional observations from a re-analysis of the deposited data

How the results depend on the processing

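*Dsc3*, *Dsp* and *Pkp2* kept the direction of their coverage difference in 10 of 10 alternatives, and the other 7 genes did not in all of theirs. Their sizes moved: over the alternatives *Dsc3* ranged from -4.13 to -0.407 percentage points, *Dsp* from 0.0592 to 9.42 and *Pkp2* from 0.968 to 4.27. With the gene body plus 10 kb, or 10 kb either side of the 5′ end, the median difference was 0.746 or 0.740 percentage points. These medians leave out *Dsc1*, which had no peak in these windows. Leaving out single tumors gave -0.145 to 0.723. Genes with both control tumors higher (*Dsc3* alone with all tumors and peaks) numbered 0 within 10 kb of the 5′ end, 0 with peaks of at least 1 kb, 2 with peaks within 1 kb joined and 2 to 5 without single tumors. Genes with both test tumors higher numbered 3 to 5 without single tumors. Promoter peaks in all 4 tumors were found at 5 genes with peaks of at least 1 kb. Regions present in all 4 tumors numbered 24 with the 10 kb flank and 17 with peaks of at least 1 kb. Control-only regions numbered 1 with the 10 kb flank, 1 with peaks of at least 1 kb, 1 with peaks joined and 6 to 17 without single tumors. Test-only regions numbered 1 with the same number of widest peaks per tumor, 1 when 50% of a region had to be covered, and 2 to 10 without single tumors. The alternatives for promoter domains were chosen after seeing the data. Domains larger in both test tumors numbered 4 to 8 without single tumors and those larger in both control tumors 0 to 1. Joining peaks left 0 genes with the upstream 250 bases covered in the test tumors only. Fewer tumors make these conditions easier to meet, and the cause of the other shifts was not tested. Read depth could not be assessed from the lists. No paired analysis was possible because the replicate numbers only name the tumors.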

Other observations

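Of the regulators of epithelial identity listed, 2 of 8 had less locus coverage in both test tumors (13.0% of the genes with a peak in the locus did), *Trp63*, whose values are given above, and *Ovol1*, with 10.4% and 12.3% in control 1 and control 2 and 10.2% and 9.24% in test 1 and test 2. The grainyhead-like gene *Grhl2*, which is known to act on junction genes, had 17.4%, 15.4%, 20.5% and 16.6% in the same order, with overlap between the groups. *Klf5* had a promoter domain of 2752, 2768, 2944 and 3867 bp, higher in both test tumors, and *Ovol1* one of 2363, 2759, 1928 and 1826 bp, higher in both control tumors. Among 5 regulators of epithelial to mesenchymal transition, *Zeb2* coverage was 6.86% for control 1, 5.29% for control 2, 4.57% for test 1 and 3.27% for test 2, and the other 4 genes overlapped. Promoter peaks of *Twist1* and *Zeb1* were found in control 2 alone.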
